A study of Mus musculus with 9 samples.

Results

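The Cyp4 genes described here are Cyp4a10, Cyp4a14, Cyp4a31, Cyp4a32, Cyp4f13, Cyp4f14, Cyp4f15 and Cyp4v3, 8 of the 41388 genes in the deposited liver count tables. They were taken by symbol, after the tables' Ensembl identifiers had been matched to gene names, by a rule that used no expression value. The list itself was drawn up with earlier results of these data known, and it leaves out Cyp4a12a and Cyp4a12b, which are described below. All 8 passed the filter on low counts. The libraries came from livers of male C57BL/6J mice that had been injected intraperitoneally with 25 mg/kg of the liver carcinogen diethylnitrosamine (DEN) at 14 days of age, had been kept on chow, and had their livers taken at 6 months. There were 3 genotypes. Control mice (Mttp Flox Con) carried floxed Mttp (Mttp fl/fl) and no deletion. MttpLKO mice lacked Mttp in the liver only, and DKO mice (Fabp1 Mttp DKO) had the same liver deletion on a germline Fabp1 deletion. Mttp encodes the microsomal triglyceride transfer protein, which loads triglyceride onto apolipoprotein B for export, and Fabp1 encodes the liver fatty acid-binding protein. There was no group without DEN and none with the Fabp1 deletion alone, so every value below is from DEN-treated liver. The transgene that drove the liver deletion is not given in the sources used here, nor is it said whether tumour was part of the tissue. Each library held RNA pooled from 3 mice, with 3 pools per genotype, so the errors below are between pools and not between animals. In such bulk RNA, fewer cells of a type and less RNA per cell cannot be told apart.

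Enzymes of the CYP4 family add a hydroxyl group to the far, methyl end of a fatty acid (omega-hydroxylation). Alcohol and aldehyde dehydrogenases then turn the product into a dicarboxylic acid, which is shortened mainly in peroxisomes. In liver, the Cyp4a genes are textbook targets of PPARalpha, the nuclear receptor that senses fatty acids, and FABP1 is a protein known to carry fatty acids to that receptor. The Cyp4f enzymes act on longer chains, on leukotriene B4 and on the side chains of vitamin E and K, and Cyp4v3 is the mouse counterpart of human CYP4V2, a fatty acid omega-hydroxylase whose loss causes a crystalline retinal dystrophy.

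None of the 8 genes differed between any pair of genotypes at an adjusted p under 0.05 (edgeR quasi-likelihood test, Benjamini-Hochberg over 14741 genes). Over all tested genes the share that passed was 0.346% in MttpLKO against control, 0.4% in DKO against MttpLKO and 0.332% in DKO against control, so a count of 0 among 8 is near that background. In the same order, the unadjusted p was under 0.05 for 1, 2 and 3 of the 8, beside 6.97%, 9.1% and 11.2% of all genes. DESeq2 called 0, 1 and 1, beside 1.12%, 1.45% and 1.73%. The Cyp4a members varied most over the 9 libraries, with 3.76-fold to 12.1-fold between the lowest and the highest. Cyp4a14 averaged 535 ± 392 CPM (read counts scaled to library size) in control, 1056 ± 358 for MttpLKO and 1474 ± 615 for DKO (SD, n = 3 pools), and the pools of the 3 genotypes overlapped. Cyp4f13, Cyp4f14, Cyp4f15 and Cyp4v3 kept within 1.84-fold between the lowest and the highest of all 9 libraries. CPM here and below are on TMM-scaled library sizes.

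The Cyp4a members lie side by side on chromosome 4. In the tables' coordinates Cyp4a14 spans chr4:115486200-115496142 on the minus strand, Cyp4a10 chr4:115518264-115533649, Cyp4a31 chr4:115563649-115579015 and Cyp4a32 chr4:115600969-115621602, these 3 on the plus strand. On chromosome 17, Cyp4f15 spans chr17:32685627-32703352 on the plus strand, Cyp4f14 chr17:32905071-32917342 on the minus strand and Cyp4f13 chr17:32924688-32947402, also on the minus strand. Cyp4v3 stands alone at chr8:45269671-45333216 on the minus strand. For 6 of the 8 these limits are those of GENCODE M21 on GRCm38. The exceptions are Cyp4f14, which starts 1 base earlier there, and Cyp4v3, which starts at 45304944 there.

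How far a short read can tell the members apart depends on their sequence. The coding sequences of Cyp4a10, Cyp4a31 and Cyp4a32 are each 1527 bases long without the stop codon and differ at 77 positions among the 3, so that Cyp4a10 was 96.6% identical to Cyp4a31 and 97.2% identical to Cyp4a32. The 90 bases in which these 3 differ most lie in exon 2 (coding bases 190 to 279). They are shown from the GENCODE M21 transcripts (GRCm38), 5′ to 3′ along the mRNA, with the 13 differing positions in capitals, at chr4:115519630-115519719, chr4:115565010-115565099 and chr4:115602260-115602349.

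Cyp4a10: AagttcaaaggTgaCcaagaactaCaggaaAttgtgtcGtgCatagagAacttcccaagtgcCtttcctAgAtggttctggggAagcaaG

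Cyp4a31: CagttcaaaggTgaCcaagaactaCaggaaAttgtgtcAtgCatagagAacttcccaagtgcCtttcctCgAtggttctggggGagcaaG

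Cyp4a32: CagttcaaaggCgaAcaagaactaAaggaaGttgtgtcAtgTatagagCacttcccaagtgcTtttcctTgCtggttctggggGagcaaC

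Other stretches cannot separate them. The 90 coding bases 1060 to 1149, which span exons 8 and 9, are the same letters in Cyp4a10 (between 115525663 and 115525848 on chromosome 4), Cyp4a31 and Cyp4a32. The counterpart in Cyp4a14, the most abundant member (coding bases 1054 to 1143), differs from them at 13 positions, in capitals. The stretch was picked for the fewest differences among Cyp4a10, Cyp4a31 and Cyp4a32, so it understates the distance of Cyp4a14. Over the whole coding sequence Cyp4a14 was 75.1% identical to Cyp4a10, 74.8% to Cyp4a31 and 75.1% to Cyp4a32.

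Cyp4a10, Cyp4a31 and Cyp4a32: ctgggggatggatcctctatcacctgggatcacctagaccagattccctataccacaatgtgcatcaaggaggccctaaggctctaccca

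Cyp4a14: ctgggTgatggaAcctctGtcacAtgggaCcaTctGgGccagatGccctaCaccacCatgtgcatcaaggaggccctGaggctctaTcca

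Of all stretches of 50 bases in the annotated transcripts, 43.8% in Cyp4a32, 29.8% in Cyp4a10 and 20.6% in Cyp4a31 occurred without a mismatch in another gene. The share was 0.2% in Cyp4a14, 1.1% in Cyp4f13, 2.4% in Cyp4f14 and 2.3% in Cyp4f15, and 7.0% in Cyp4v3, all of it shared with the overlapping gene model Gm45753. How reads that fit several genes were counted is not given in the sources used here. The separate values of Cyp4a10, Cyp4a31 and Cyp4a32 are therefore uncertain, and most so for Cyp4a31 and Cyp4a32, whose counts per library (193 to 827 and 275 to 927) were far below those of Cyp4a10 (4680 to 19579). Cyp4a14 had 4199 to 45835 counts per library, the Cyp4f members 2369 to 8910 and Cyp4v3 7633 to 9748.

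Library totals ran from 23268389 to 27918197 counts, lowest in the 3 DKO pools. Mttp fitted the labels, at 69.41 to 180.8 CPM in the control pools, 6.138 to 9.779 in MttpLKO and 3.236 to 5.788 in DKO, and Fabp1 was at 50.28 to 77.96 CPM in DKO against at least 3379 in every other library. MttpLKO replicate 3 stood apart, at 53.7 on the first principal component against -17.4 to 9.6 for the others, with a summed CPM of B and plasma cell markers (7 of 7 detected) of 338 against 12.7 to 22.9 elsewhere. It also had the highest sums of T and NK cell markers (14.4 against 2.2 to 5.92), stellate cell markers (427 against 207 to 270) and bile duct markers (160 against 86.7 to 129). DKO replicate 1 had the lowest sum of 10 hepatocyte markers, 68784 against 87118 to 112010. Control replicate 1 had the lowest sum of 12 female-biased liver genes, 27.9 against 103 to 307. The kidney tubule list, which bears on a gene family that kidney also uses, reached at most 0.162 CPM in any library, with Kap and Aqp2 at 0 in all. Markers of pericentral hepatocytes, the zone in which Cyp4a enzymes are known to be high, summed to 10552 to 11037 CPM in the control pools, 14198, 14900 and 8274 in MttpLKO pools 1 to 3 and 10667 to 12403 in DKO. Control replicate 1, MttpLKO replicate 3 and DKO replicate 1 recur below among the low pools of the Cyp4a members, and the part of these marker differences in the results was not tested.

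Compared per length (CPM per kilobase of the deposited exon length, on the TMM scale), the 8 genes had the same order in all 3 genotypes. In control it ran from Cyp4a14 (206 ± 151), Cyp4a10 (153 ± 66.2), Cyp4f15 (123 ± 6.97), Cyp4f14 (86.9 ± 10.8), Cyp4v3 (56.6 ± 3.09) and Cyp4f13 (39.2 ± 0.368) down to Cyp4a32 (12.6 ± 1.61) and Cyp4a31 (3.86 ± 1.24). Cyp4a14 stood at the 99.0th percentile of the tested genes by its mean over the 9 libraries and Cyp4a31 at the 67.8th. The place of Cyp4v3 rests on a deposited exon length of 6246 bases, part of it outside the gene's GENCODE M21 limits. A shorter length would raise its level, and the order under another length was not tested. Not every step of the order exceeded the spread between pools. Cyp4a14 and Cyp4a10 overlapped in each genotype, Cyp4a10 and Cyp4f15 overlapped in control only, and in DKO the pairs Cyp4f14 with Cyp4v3 and Cyp4a32 with Cyp4a31 overlapped as well.

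Cyp4a14, an inducible fatty acid omega-hydroxylase and the most abundant member, had the widest range over the 9 libraries. Its level was 169.7, 486.9 and 948.8 CPM in the control pools 1 to 3, 919.2, 1463 and 786.5 in MttpLKO, and 828.4, 1539 and 2054 in DKO. Control pool 1 was the lowest library and DKO pool 3 the highest, 12.1-fold apart, and control pool 3 lay above MttpLKO pools 1 and 3 and DKO pool 1. The coefficient of variation was 73.2% within control, 33.9% within MttpLKO and 41.7% within DKO. It was the highest of the 8 genes in control only, since Cyp4a10 had 36.0% within MttpLKO and Cyp4a32 and Cyp4a31 had 55.6% and 49.6% within DKO. Differences between genotype means could therefore be placed only loosely. Against control, the log2 fold change was 0.98 ± 0.51 (SE) in MttpLKO (95% interval -0.15 to 2.11, adjusted p = 0.79) and 1.46 ± 0.52 in DKO (0.32 to 2.60, adjusted p = 0.336), and DKO minus MttpLKO was 0.48 ± 0.51 (-0.64 to 1.60, adjusted p = 0.823).

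Cyp4a10, which hydroxylates lauric acid and other medium- to long-chain fatty acids, followed the same libraries. It was at 189.2, 311.4 and 467.6 CPM in the control pools, 555.4, 688.6 and 318.3 in MttpLKO, and 428.4, 807.4 and 877.2 in DKO. As for Cyp4a14, control pool 1 was lowest and DKO pool 3 highest, and MttpLKO pool 3 and DKO pool 1 were the low pools of their genotypes, within the range of control. Means were 323 ± 140, 521 ± 188 and 704 ± 242 CPM. The log2 fold change was 0.69 ± 0.37 in MttpLKO against control (-0.12 to 1.5, adjusted p = 0.798), 0.44 ± 0.37 in DKO against MttpLKO (-0.37 to 1.24, adjusted p = 0.768) and 1.13 ± 0.37 in DKO against control (0.31 to 1.94, adjusted p = 0.291).

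Cyp4a31 and Cyp4a32 are close relatives of Cyp4a10 at much lower level. Cyp4a31 measured 7.802, 8.012 and 13.27 CPM in the control pools, 9.626, 18.6 and 16.9 in MttpLKO, and 12.34, 25.46 and 37.05 in DKO. DKO pools 2 and 3 exceeded every other library, while DKO pool 1 lay within control. Its log2 fold change was 1.36 ± 0.38 in DKO against control (0.53 to 2.19, adjusted p = 0.213), 0.63 ± 0.38 in MttpLKO against control (-0.19 to 1.46, adjusted p = 0.852) and 0.73 ± 0.37 between DKO and MttpLKO (-0.08 to 1.54, adjusted p = 0.596). For Cyp4a32 the values were 17.06, 19.07 and 21.99 CPM in the control pools, 29.76, 27.71 and 16.38 in MttpLKO, and 11.05, 31.0 and 41.53 in DKO. The lowest and the highest of the 9 libraries were both DKO pools, and the 3 fold changes of Cyp4a32 (log2 0.34, 0.18 and 0.52, each ± 0.38) had intervals that included 0. With the counts of Cyp4a10, Cyp4a31 and Cyp4a32 summed, the log2 fold changes were 0.67 in MttpLKO and 1.11 in DKO against control and 0.43 in DKO against MttpLKO (edgeR adjusted p = 0.798, 0.29 and 0.76). A sum does not depend on how counted reads were split among the 3, but it would not restore shared reads left uncounted. Cyp4a10 gave 116953 of its counts over the 9 libraries, Cyp4a31 3719 and Cyp4a32 5442. The sum therefore mostly repeats Cyp4a10 and cannot speak for the other 2.

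**Figure D1:**
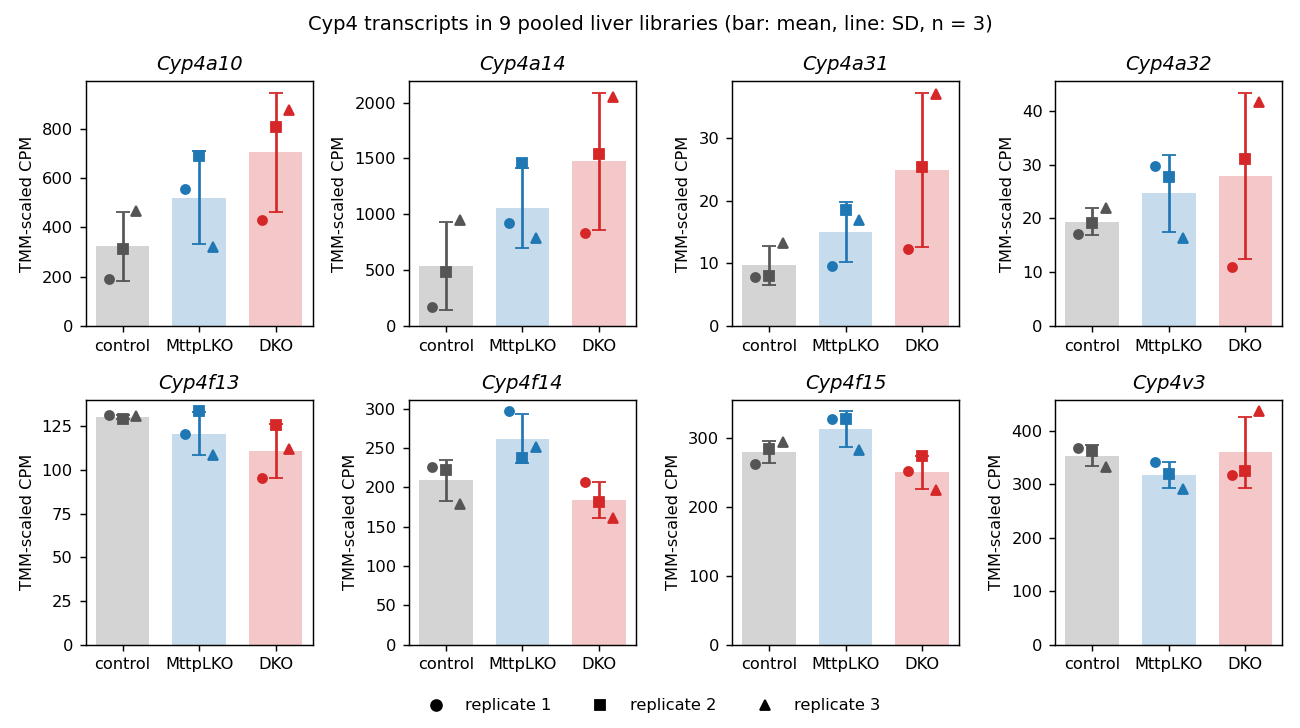
TMM-scaled CPM of the 8 Cyp4 genes in each of the 9 pooled liver libraries; points are pools with their replicate number as the shape, bars are genotype means and lines the SD (n = 3). Cyp4a14 ran from 169.7 to 2054 CPM with overlapping genotypes, whereas Cyp4f13 ran only from 95.21 to 133.6 CPM.

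Among the Cyp4f members the spread was far smaller. Cyp4f14, the vitamin E and leukotriene omega-hydroxylase of mouse liver, was at 226.1, 222.0 and 179.0 CPM in the control pools, 296.9, 237.4 and 251.9 in MttpLKO, and 207.2, 181.5 and 161.4 in DKO. All 3 MttpLKO pools lay above all control and all DKO pools. The log2 fold change was 0.33 ± 0.14 in MttpLKO against control (0.02 to 0.63, adjusted p = 0.671) and -0.52 ± 0.14 in DKO against MttpLKO (-0.82 to -0.21, adjusted p = 0.233), and neither passed the adjusted threshold in edgeR. DESeq2 gave an adjusted p of 0.0463 for the second. Between DKO and control, whose pools overlapped, it was -0.19 ± 0.14 (-0.50 to 0.12, adjusted p = 0.671).

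Cyp4f15, on the same chromosome as Cyp4f14 and 80.0% identical to it in coding sequence, had a like order at smaller size. It measured 262.6, 283.4 and 293.8 CPM in the control pools, 328.3, 327.5 and 282.6 in MttpLKO, and 251.4, 273.8 and 225.1 in DKO. Every DKO pool lay below every MttpLKO pool, and MttpLKO pool 3 lay within control. The DKO and MttpLKO means, 250 ± 24.4 and 313 ± 26.1 CPM, gave a log2 fold change of -0.32 ± 0.11 (-0.58 to -0.07, adjusted p = 0.401). Against control the log2 values were 0.16 ± 0.11 in MttpLKO (adjusted p = 0.894) and -0.16 ± 0.11 in DKO (adjusted p = 0.655).

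Cyp4f13 had the narrowest range of the 8 genes over the 9 libraries, 1.4-fold from lowest to highest. The control pools were at 131.5, 129.1 and 130.7 CPM, a coefficient of variation of 0.939%, the MttpLKO pools at 120.3, 133.6 and 108.5, and the DKO pools at 95.21, 125.8 and 111.8. Within MttpLKO and DKO its coefficient of variation, 10.4% and 13.8%, was not the lowest, Cyp4v3 having 7.86% in MttpLKO and Cyp4f15 9.75% in DKO. All 3 DKO pools of Cyp4f13 were below all 3 control pools, at a mean 1.18-fold lower. The log2 fold change was -0.23 ± 0.12 (-0.50 to 0.03, adjusted p = 0.516), -0.11 ± 0.12 in MttpLKO against control (adjusted p = 0.961) and -0.12 ± 0.12 between DKO and MttpLKO (adjusted p = 0.801). Intervals of this width bound a change of Cyp4f13 in MttpLKO to -0.38 to 0.16 log2 units, whereas that of Cyp4a14 could lie anywhere between -0.15 and 2.11.

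Cyp4v3 was at 367.0, 362.4 and 331.5 CPM in the control pools, 341.9, 319.0 and 292.0 in MttpLKO, and 317.5, 325.0 and 436.8 in DKO. The third DKO pool was the highest of all libraries, and the genotypes overlapped in each pair. Its log2 fold changes were -0.15, 0.18 and 0.02 (each ± 0.14) in MttpLKO against control, DKO against MttpLKO and DKO against control, and all 3 intervals included 0. Pool 3 of DKO carried the last of these, which was -0.14 without it.

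**Figure D2:**
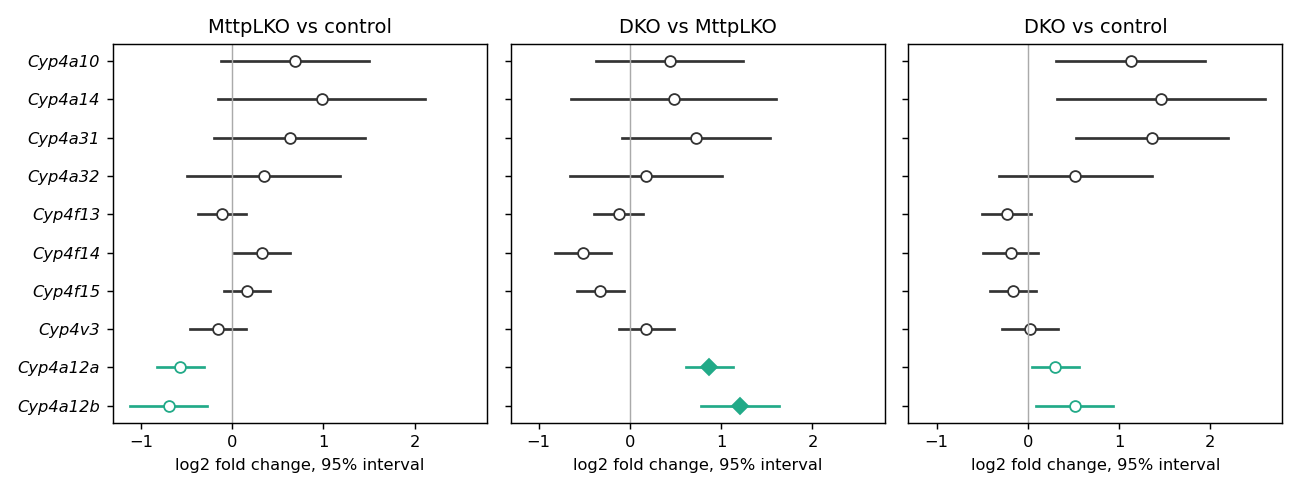
Log2 fold changes of the 8 Cyp4 genes and of Cyp4a12a and Cyp4a12b (green) in the 3 genotype comparisons, with 95% intervals from edgeR; filled diamonds passed an adjusted p of 0.05. All 8 genes have open circles in every panel, and the Cyp4a intervals are wider than those of the Cyp4f genes and Cyp4v3.

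The genes with an unadjusted p under 0.05 were Cyp4f14 in MttpLKO against control, Cyp4f14 and Cyp4f15 in DKO against MttpLKO, and Cyp4a10, Cyp4a14 and Cyp4a31 in DKO against control, where the shares over all genes were 6.97%, 9.1% and 11.2%. The DESeq2 calls were Cyp4f14 in DKO against MttpLKO and Cyp4a31 in DKO against control, and limma-voom called 0 in each comparison (0.278%, 0.38% and 0.237% of all genes). Without the low-count filter, edgeR called Cyp4a10 and Cyp4a31 in DKO against control (adjusted p = 0.0477 and 0.014), where it called 0.789% of all genes. Without control replicate 1 and MttpLKO replicate 3, the count was 0 in all 3 comparisons. Groups that did not overlap were seen for 1 member in MttpLKO against control (higher), 2 in DKO against MttpLKO (lower) and 1 in DKO against control (lower), where 7.27%, 5.83% and 9.18% of all genes did the same. The median log2 fold change of the 8 was 0.34, 0.18 and 0.27, beside 0.011, -0.0164 and -0.00186 over all genes tested. The 2 comparisons with control share the control pools, and the low value of control pool 1 entered both. Without that pool, the log2 fold change of Cyp4a14 was 0.56 in MttpLKO and 1.05 in DKO, and without control pool 3 it was 1.67 and 2.16.

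The Cyp4a members varied together from pool to pool. Over the 9 libraries, Pearson's r of log2 CPM was 0.952 between Cyp4a10 and Cyp4a14, and 0.914 after the genotype means were removed. These 2 genes have no stretch of 50 bases in common, since those of Cyp4a14 recurred in the pseudogene Cyp4a30-ps only. It was 0.828 between Cyp4a14 and Cyp4a31 (0.689 within genotypes) and 0.605 between Cyp4a14 and Cyp4a32 (0.612). Cyp4f14 went the other way within genotypes, at r = -0.63 with Cyp4a10, -0.768 with Cyp4a14, -0.955 with Cyp4a31 and -0.51 with Cyp4a32. The value with Cyp4a31 was the lowest of all pairs computed. Over the 9 libraries, with genotype means kept, the same pairs gave the weaker values -0.388, -0.362, -0.595 and -0.258. In MttpLKO and DKO the pool with the lowest Cyp4a31 had the highest Cyp4f14, and in control pool 3 was the highest in Cyp4a31 and the lowest in Cyp4f14. Cyp4f13 and Cyp4f15 had no such relation to Cyp4a31 (0.484 and -0.203). All of these come from the same 9 libraries, share their depth and scaling, and are given as descriptions.

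**Figure D3:**
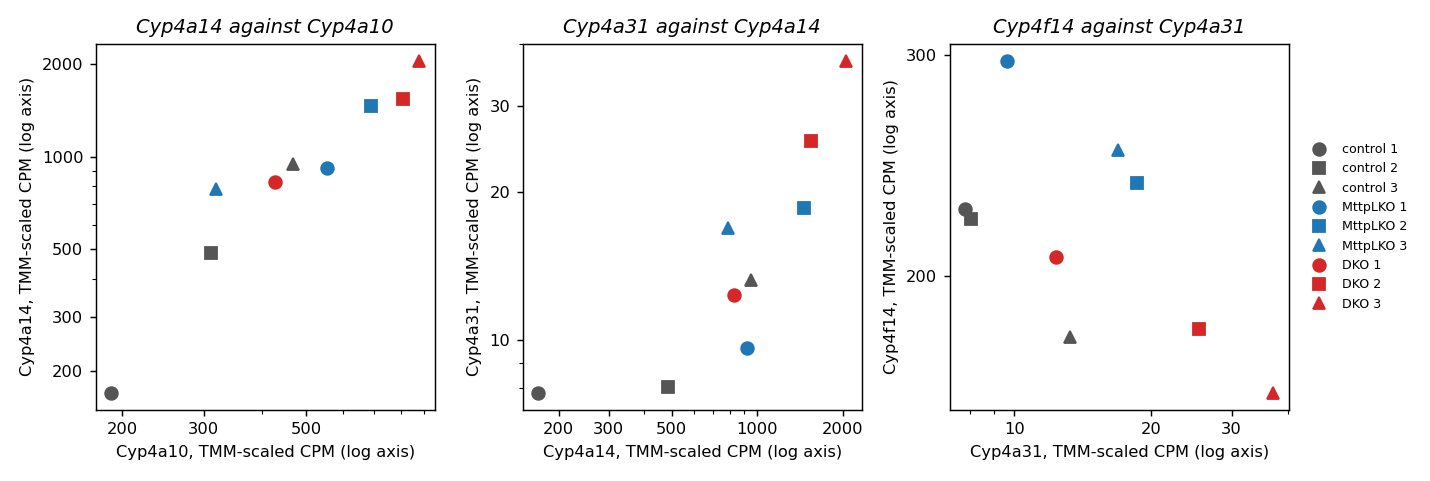
Pairs of Cyp4 genes across the 9 pooled libraries, in TMM-scaled CPM on log axes; colour is the genotype and shape the replicate number. Cyp4a14 and Cyp4a10 line up (r = 0.952), as less tightly do Cyp4a31 and Cyp4a14 (r = 0.828), and Cyp4f14 is high where Cyp4a31 is low within each genotype (r = -0.955 after removing genotype means).

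The make-up of the 8 listed genes differed between pools. The sums below leave out Cyp4a12a and Cyp4a12b, so they do not give the share of all Cyp4a genes. Those 2 were at 319.6 and 179.1 CPM in control pool 1, where the 4 listed Cyp4a genes summed to 384 CPM. The 4 listed Cyp4a genes supplied 28%, 45.3% and 60.8% of the summed CPM of the 8 in the control pools, 58.2%, 68.4% and 54.9% in MttpLKO, and 59.5%, 72.6% and 76.3% in DKO. The summed level of these 4 ran from 384 to 3009 CPM, while the 3 listed Cyp4f genes together stayed between 498 and 746 CPM. Per length, the ratio of Cyp4a14 to Cyp4a10 was 0.728 in control pool 1 and 1.27 to 2.0 in the other 8 libraries. Control pool 1 was thus the only library in which Cyp4a10 exceeded Cyp4a14 on this scale.

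By the same measure, the gene whose pattern was most like that of Cyp4a14 over the 9 libraries was Gpat3 (r = 0.953), which encodes a glycerol-3-phosphate acyltransferase, followed by Cyp4a10, Brsk2, Rom1 and Baiap2 (0.952 to 0.914). Gpat3 was at 2.304, 6.959 and 7.596 CPM in the control pools, 11.8, 12.39 and 7.636 in MttpLKO, and 10.41, 11.5 and 20.61 in DKO, again lowest in control pool 1 and highest in DKO pool 3. Closest to Cyp4f15 were 5430402O13Rik, Slc22a18, Lrrc40, Slc17a8 and Atp2b2 (0.973 to 0.945). For Cyp4v3 they were Spryd4, Cabin1, Kmo, Hdac4 and Fgb (0.952 to 0.936).

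Elsewhere in the family 2 genes passed the adjusted threshold in edgeR. Of 12 other Cyp4 genes, 6 had enough counts to be tested. Cyp4a12a and Cyp4a12b rose in DKO against MttpLKO, where 0.258% of all genes were called higher. Cyp4a12a, an arachidonic acid omega-hydroxylase that is higher in male mice, was at 319.6, 311.7 and 304.2 CPM in the control pools, 244.1, 185.3 and 202.3 in MttpLKO, and 390.3, 375.1 and 388.8 in DKO. The 3 genotypes did not overlap, and the DKO level was 1.83-fold that of MttpLKO (log2 0.87 ± 0.12, edgeR adjusted p = 0.00845). MttpLKO against control gave log2 -0.57 at an adjusted p of 0.107. Cyp4a12b averaged 128 ± 44 CPM in the control pools, 79.2 ± 6.21 in MttpLKO and 183 ± 10 in DKO, 2.31-fold higher in DKO than in MttpLKO (log2 1.21 ± 0.19, edgeR adjusted p = 0.0235). Their coding sequences are 98.5% identical and 48.9% of the 50-base stretches of Cyp4a12a occur in Cyp4a12b, so their split is uncertain too. The Cyp4a12a call was lost without MttpLKO replicate 2 (adjusted p = 0.0579) and in a fit of the 2 genotypes alone (0.0554), and the Cyp4a12b call without any 1 of the 6 MttpLKO and DKO libraries (0.0546 to 0.138). Both genes belong to the list of 12 male-biased liver genes, and they are counted in what follows. In DKO against MttpLKO, 4 of the 12 were called higher (0.258% of all genes) and 0 lower, with 7 log2 fold changes above 0, 5 below and a median of 0.33. In MttpLKO against control, 11 of the 12 were below 0, with a median of -0.41, and 8 had all MttpLKO pools below all control pools (6.99% of all genes). There 7 had an unadjusted p under 0.05 (6.97%), and 1 was called lower (18 of all 14741 genes). In DKO against control, 6 were above and 6 below 0, and 1 was called lower (14 of all 14741 genes). Of the 12, 7 had an unadjusted p under 0.05 (11.2% of all genes). All DKO pools lay below all control pools for 4 (9.18% of all genes) and above them for 1. The summed CPM of the list, to which a few abundant genes contribute most, was 18295 to 21677 in control, 18612 to 19711 in MttpLKO and 16460 to 18938 in DKO. The part of this list's differences in the Cyp4a12a and Cyp4a12b results was not tested. Within genotypes Cyp4a12b correlated at -0.749 with Cyp4a14. The other tested relatives, Cyp4b1, Cyp4f16, Cyp4f17 and Cyp4f18, were at 21.51 CPM or less in every library and had adjusted p of at least 0.775.

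Next in the pathway come the partners of the reaction. Of the 4 genes that supply P450 enzymes with electrons, none passed in any comparison, and their median log2 fold changes were 0.02, -0.05 and -0.02 in MttpLKO against control, DKO against MttpLKO and DKO against control. Por, the P450 reductase itself, was at 779.8 to 1013 CPM in the control pools, 935.5 to 1551 in MttpLKO and 896.6 to 1660 in DKO. Its unadjusted p was under 0.05 in MttpLKO against control only (log2 0.55 ± 0.25, edgeR adjusted p = 0.701). Cyb5a, cytochrome b5, had its smallest p in DKO against control (log2 -0.25, adjusted p = 0.523). The alcohol and aldehyde steps, 9 genes, likewise gave 0 calls, with medians of -0.07, 0.02 and -0.05 and 0, 1 and 1 genes at an unadjusted p under 0.05 (6.97%, 9.1% and 11.2% of all genes). That gene was Aldh3a2, the fatty aldehyde dehydrogenase, at 334.3, 428.9 and 443.3 CPM in the control pools, 535.4, 465.8 and 350.0 in MttpLKO and 620.8, 648.2 and 597.6 in DKO. All 3 DKO pools exceeded all 6 others, and the log2 fold change against control was 0.63 ± 0.16 (edgeR adjusted p = 0.188). Aldh1a1, a retinal and fatty aldehyde dehydrogenase, had log2 0.40 in MttpLKO against control at an adjusted p of 0.80.

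Downstream, 25 of 26 genes of peroxisomal and dicarboxylate oxidation were tested. In MttpLKO against control 1 rose, where 0.346% of all genes were called in either direction. Abcd2, a peroxisomal transporter of very long-chain fatty acids, went from 3.234, 7.335 and 6.221 CPM in control to 16.43, 13.82 and 17.9 in MttpLKO, 2.86-fold on the fitted scale (log2 1.52 ± 0.25, edgeR adjusted p = 0.0356). In DKO it was at 8.882, 10.9 and 9.409. Abcd2 also stands on the list of female-biased liver genes, whose summed CPM was 27.9 to 121 in control, 162 to 307 in MttpLKO and 158 to 255 in DKO. Of its 8 tested genes, Abcd2 included, all 8 were above 0 in MttpLKO against control (median log2 0.67), 2 were above 0 in DKO against MttpLKO (median -0.72) and 4 in DKO against control (median 0.13). The call was lost without control replicate 2 or 3, without any 1 MttpLKO library, without DKO replicate 1 or 2, without control replicate 1 and MttpLKO replicate 3 together, or in a fit of those 2 genotypes alone (adjusted p = 0.0501 to 0.13). Over the list, the log2 fold change was above 0 for 13, 19 and 22 of the 25 genes in MttpLKO against control, DKO against MttpLKO and DKO against control, where 52.3%, 46.9% and 49.6% of all genes were. The medians were 0.04, 0.17 and 0.22, and 4, 8 and 8 of the 25 genes had an unadjusted p under 0.05, where 6.97%, 9.1% and 11.2% of all genes did.

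PPARalpha and its partners, 11 genes, gave 0 calls (1, 4 and 2 at an unadjusted p under 0.05, against 6.97%, 9.1% and 11.2% of all genes), with medians of -0.06, 0.14 and 0.08. Ppara itself ranged from 71.06 to 106.6 CPM over the 9 libraries and its log2 fold changes were -0.13, 0.08 and -0.05 (edgeR adjusted p = 0.956, 0.90 and 0.923). The smallest p belonged to Ncor1, a corepressor of nuclear receptors, at 146.9 to 152.0 CPM in DKO against 112.5 to 123.7 in MttpLKO (log2 0.36 ± 0.09, edgeR adjusted p = 0.195), and to Ppargc1a, a coactivator, at log2 -0.83 ± 0.29 in the same comparison (adjusted p = 0.386). Of 23 other PPARalpha targets 22 were tested. In DKO against MttpLKO 1 fell, where 0.4% of all genes were called in either direction. Me1, the cytosolic malic enzyme, was at 105.9, 92.47 and 94.0 CPM in MttpLKO and 62.1, 56.29 and 53.41 in DKO, with control between at 91.36, 83.89 and 77.66, and the DKO level was 1.7-fold below that of MttpLKO (log2 -0.77 ± 0.11, edgeR adjusted p = 0.0105). That call was lost without MttpLKO replicate 2 (adjusted p = 0.054), without DKO replicate 2 (0.0585) and in a fit of the 2 genotypes alone (0.0505). The targets' log2 fold changes were above 0 for 17, 17 and 19 of 22 and below 0 for 5, 5 and 3. Over all genes 52.3%, 46.9% and 49.6% were above 0. The targets' medians were 0.11, 0.14 and 0.23, and 1, 3 and 8 had an unadjusted p under 0.05 (again 6.97%, 9.1% and 11.2% of all genes). Fabp4 is among these targets and among the adipocyte markers. The summed CPM of those markers was 21.1 to 35.1 in control, 14.7 to 27.9 in MttpLKO and 39.7 to 101 in DKO. Fabp4, which is part of that sum, averaged 8.57 ± 1.15, 12.8 ± 6.55 and 11.3 ± 2.27 CPM in the same order. Over MttpLKO pools 1 to 3 it ranked as the sum did, at 7.563, 10.77 and 20.16 CPM beside 14.7, 20.1 and 27.9. In DKO it did so too, at 10.41, 13.84 and 9.543 beside 53.4, 101 and 39.7, but in control it did not. The part of adipocyte RNA in these values was not tested.

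A list of 9 P450 genes of the Cyp2 family was drawn up for hydroxylation of fatty acids at or next to the methyl end. That is not the main reaction of every gene on it. The list had 0 calls and medians of 0.04, -0.02 and -0.01, with 1, 3 and 0 of 9 at an unadjusted p under 0.05 (6.97%, 9.1% and 11.2% of all genes). Cyp2c29 was at 1094 to 1813 CPM in MttpLKO and 879.6 to 1044 in DKO, without overlap (log2 -0.63 ± 0.18, edgeR adjusted p = 0.258). Cyp2u1 was at 5.366 to 9.081 in MttpLKO and 9.404 to 20.21 in control (log2 -0.90 ± 0.28, adjusted p = 0.415). Of the genes that make or break down leukotrienes and other arachidonate products, the substrates of the Cyp4f enzymes among them, 9 of 10 were tested and 0 passed, with medians of -0.06, 0.11 and 0.06. The unadjusted p was under 0.05 for 3, 0 and 0 of the 9, beside the same shares of all genes. Ltc4s, leukotriene C4 synthase, was at 0.8276 to 1.496 CPM in control and 0.3707 to 0.6983 in MttpLKO (log2 -1.21 ± 0.36, edgeR adjusted p = 0.363), and Alox5 at 0.3255 to 0.4447 and 0.6248 to 1.112 (log2 1.01 ± 0.39, adjusted p = 0.622). The macrophage markers, from cells that express Alox5, summed to 101 to 141 CPM in the control pools, 44.6 to 146 in MttpLKO and 71.4 to 160 in DKO.

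**Figure D4:**
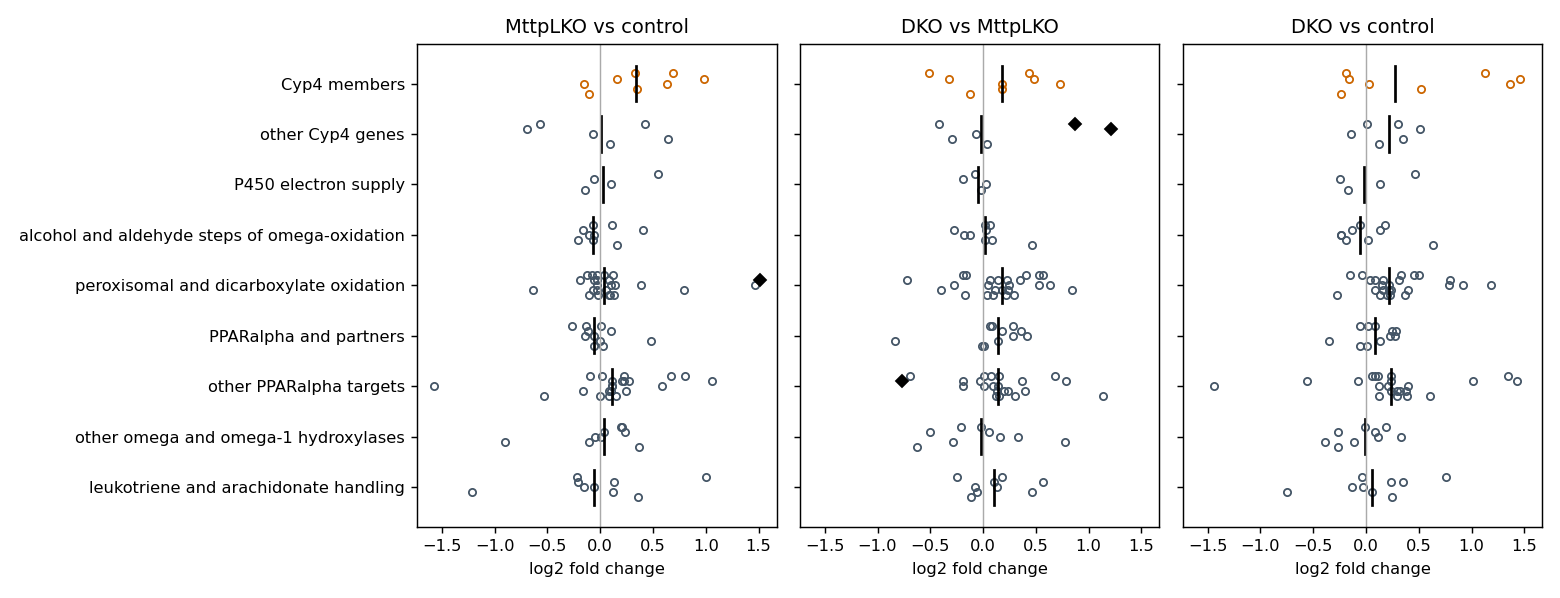
Log2 fold changes of every tested gene of the 8 Cyp4 genes (orange) and of the other lists of the omega-oxidation pathway in the 3 comparisons; each circle is a gene, the black bar is the list's median and black diamonds passed an adjusted p of 0.05 in edgeR. Only 4 diamonds appear, Abcd2 in MttpLKO against control and Cyp4a12a, Cyp4a12b and Me1 in DKO against MttpLKO.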

How the data were processed

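RNA had been extracted with Trizol, treated with DNase and selected with oligo(dT), per the labels' protocols. The authors deposited, for each library, a table of raw counts per Ensembl gene with exon coordinates and length, and CPM and RPKM beside them. The deposited CPM and RPKM were recomputed from the deposited counts to within 5.1e-11 and were not tested. The submitters' processing notes list STAR 2.0.4b, featureCounts 1.4.5 and Subread, without their roles. Neither build nor strandedness is given in those sources. Among 41388 identifiers, 97.26% had a symbol. Rhbg, a listed marker, was not matched.

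Counts were fitted with edgeR 4.0.16 (R 4.3.3; TMM, filterByExpr with a minimum count of 10, quasi-likelihood F test of 3 genotype means over 9 libraries, Benjamini-Hochberg threshold 0.05). The biological coefficient of variation was 18.3%. Intervals are 95%. Alternatives used DESeq2 1.42.0, limma 3.58.1 (voom), other size factors, filters and samples. The code was tested on simulated counts. The labels do not say that pools came from separate cohorts, so p-values measure the spread between these pools.

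The members and all lists were chosen with earlier results of these data known. Named genes were the members, Mttp and Fabp1, genes of the other pathway lists past the threshold (where a list had none, the 2 of smallest p), and the 5 genes most correlated with Cyp4a14, Cyp4f15 and Cyp4v3. Percentiles use CPM per kilobase. Symbols came from a table of Ensembl gene names, and transcript sequences from GENCODE M21.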

Additional observations from a re-analysis of the deposited data

How the results depend on the processing

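The number of Cyp4 genes past the threshold was 0 in each comparison and stayed 0 in 48 of 51 other fits. It was 1 in DKO against MttpLKO (Cyp4f14, log2 -0.51) and 1 in DKO against control (Cyp4a31) with DESeq2, and 2 in DKO against control (Cyp4a10 and Cyp4a31) without the low-count filter. Leaving out each library in turn gave 0 to 0 in every comparison. Of the fold changes of single genes, 5 changed sign. For Cyp4a32 in DKO against MttpLKO the log2 value was -0.04 without MttpLKO replicate 3, -0.22 without DKO replicate 3 (-0.22 to 0.56 over the libraries left out in turn) and -0.05 without control replicate 1 and MttpLKO replicate 3, a setting chosen after seeing the data. For Cyp4v3 in DKO against control it was -0.02 without control replicate 3 and -0.14 without DKO replicate 3 (-0.14 to 0.11 over the libraries left out in turn). The cause was not tested. Over its alternatives Cyp4a14 ranged over 0.56 to 1.67, 0.17 to 0.80 and 1.03 to 2.16 in MttpLKO against control, DKO against MttpLKO and DKO against control. Deviations from the genotype means correlated at r -0.244 to 0.072 between same-numbered libraries and at -0.181 to 0.214 between differently numbered ones. With means of only 3 pools, these values cannot settle whether the numbers paired the pools. The fit with the replicate number as a block called 0 of the Cyp4 genes in all 3 comparisons. Over all genes the calls were 51, 59 and 49, with 165, 214 and 255 in DESeq2, 171, 180 and 201 without the filter, 50, 34 and 78 with only the 2 genotypes compared, 35, 43 and 40 under the block, and 31, 70 and 80 without control replicate 1 and MttpLKO replicate 3. Leaving out 1 library gave 14 to 54, 22 to 73 and 15 to 100.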
